A study of Mus musculus with 22 samples.

Results

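Oxidative phosphorylation in mammals is built from nuclear and mitochondrial genes, and the genes described here are the nuclear ones that encode its subunits. Members were taken by symbol: protein-coding genes named Ndufa, Ndufb, Ndufc, Ndufs or Ndufv with a number, Sdha to Sdhd, Uqcr, Cox4 to Cox8, and Atp5. Of 56748 gene IDs in the files, 85 protein-coding IDs bore such a name, and 82 of them held a count of at least 10 in at least 5 of 22 libraries. These 82 members comprised 37 genes of complex I, 4 of complex II, 8 of complex III, 16 of complex IV and 17 of complex V. The IDs left out were Cox7b2, Cox8c and an additional ID of Atp5o. The name rule does not take in every subunit, as Cyc1 and Ndufab1 are named otherwise. It takes in Atp5s, which is not a classical subunit of ATP synthase, and it places Ndufa4 and Ndufa4l2 under complex I, although Ndufa4 is now assigned to complex IV.

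The tissue was bulk RNA of primary tumours grown in the cheek lining of mice. All groups carried 1 Krt5CreER-T2 allele, Trp53fl/fl and 2 copies of Rosa26LSL-PIK3CA(H1047R), an activated PIK3CA transgene behind a stop cassette. The Keap1-deleted groups carried Keap1fl/fl in addition. Tumours were started by injecting 4-hydroxytamoxifen into the buccal mucosa, alone ("untreated") or together with BAP, which is benzo[a]pyrene, a carcinogen found in tobacco smoke. The Keap1-wildtype tumours gave 6 untreated and 6 BAP libraries, and the Keap1-deleted tumours gave 5 of each kind. Because the Cre recombinase is driven from the Krt5 promoter of basal keratinocytes, stromal, vascular, immune and muscle cells of the host keep their Keap1 alleles, and gene-level counts from a whole tumour mix both. The labels do not give the age or sex of the mice and do not tie tumours to animals, so p values measure the spread between these samples.

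In the inner mitochondrial membrane, complex I (NADH dehydrogenase) and complex II (succinate dehydrogenase) pass electrons to ubiquinone, complex III (cytochrome bc1) passes them on to cytochrome c, and complex IV (cytochrome c oxidase) hands them to oxygen. Complexes I, III and IV pump protons, and complex V (ATP synthase) uses the gradient to make ATP. The catalytic centres sit in a few conserved core subunits, with many accessory subunits around them, and several complex IV subunits exist as a widely expressed form and a form of heart and skeletal muscle. KEAP1 targets the transcription factor NRF2 (gene Nfe2l2) for degradation. NRF2 is a different protein from nuclear respiratory factor 1 (gene Nrf1), a known activator of respiratory chain genes.

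Total counts per library were between 29235010 and 39862777. The members together took 0.817% to 1.62% of a library's counts, with group medians from 0.992% to 1.13%. Levels are given as CPM after TMM scaling, which corrects for library composition, and differences as edgeR log2 fold changes, each with a standard error (SE). Adjusted p values are Benjamini-Hochberg values of edgeR's quasi-likelihood test over 19202 genes, and "called" means an adjusted p under 0.05. All 82 members passed the filter on low counts and were tested. A pair of libraries stood apart. Keap1-wildtype untreated 6 held 201 CPM of Krt5, the keratin of basal keratinocytes, while the other 5 libraries of its group held 4583 to 7694 CPM. Keap1 itself stood at 65.6 CPM in the library labelled Keap1-deleted BAP 2, within the range of the wildtype libraries (45.8 to 78.9 CPM), while the other deleted libraries held 9.45 to 36.4 CPM. Keap1 was lower in deleted tumours by a log2 fold change of -0.98 untreated (adjusted p = 0.137) and -0.93 with BAP (adjusted p = 0.0253), and Nqo1, a target of NRF2, rose by 2.67 (adjusted p = 0.0457) and 1.54 (adjusted p = 0.0293). By library, Nqo1 held 177 CPM in the library labelled Keap1-deleted BAP 2, above every wildtype library (19.4 to 85.8 CPM), while Keap1-deleted BAP 3 and 4 held 19.4 and 54.3 CPM, within the wildtype range. Counts below are therefore also given without this pair, a choice made after the data were seen.

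The labelled cell type, squamous carcinoma, was checked against its markers. Krt5 ranged from 4645 to 10079 CPM in Keap1-wildtype BAP tumours and from 1.80 to 299 CPM in Keap1-deleted BAP tumours, so that it fell by 5.2 on the log2 scale (SE 0.98, adjusted p = 6.51e-04). The summed level of 14 basal keratinocyte markers ran from 34291 to 66766 CPM in the former and from 337 to 2212 CPM in the latter. The sums did not overlap, so all Keap1 comparisons in the BAP arm are between groups that also differ in the level of these markers.

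The subunit genes spanned a wide range of levels. Per kilobase of the deposited gene length, the highest mean in Keap1-wildtype untreated tumours was that of Cox6a1 (566 CPM per kb), the widely expressed form of a complex IV subunit, followed by Cox8a (346 CPM per kb) and Cox4i1 (307 CPM per kb). The muscle-type forms were near the lower end of the per-length scale, with 2.34 CPM per kb for Cox6a2, 1.53 CPM per kb for Cox8b and 0.615 CPM per kb for Cox7a1. Ndufs1, which holds iron-sulphur clusters of complex I, had 10.7 CPM per kb over its long deposited gene length. Lengths are the authors' single length per gene, so a long untranslated exon lowers such a value.

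In BAP tumours, Keap1 deletion went with lower levels of part of the subunit genes. Of the 82 members 25 fell, which is 30.5% beside 20.0% of all genes tested, and 4 rose, which is 4.88% beside 20.3% of all genes. In either direction 35.4% of members were called, beside 40.3% of all genes, and 36 members (43.9%) had an unadjusted p under 0.05, beside 48.8%, so the number of calls was near the background and the split between directions was not. The median log2 fold change of the members was -0.36 and that of all genes -0.00, and 66 members lay below 0 (80.5%, against 50.0% of all genes). The lead of lower over higher calls depended on the scaling. With library totals as the only scaling 6 members were lower and 8 higher (17.1% called), beside 11.4% of all genes lower and 31.5% higher (42.9% called). The median of all genes then moved to 0.44 and that of the members to 0.09, while the gap between members and all genes was -0.35 under both scalings. In bulk tumours fewer cells of a type and less RNA per cell cannot be told apart.

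**Figure D1:**
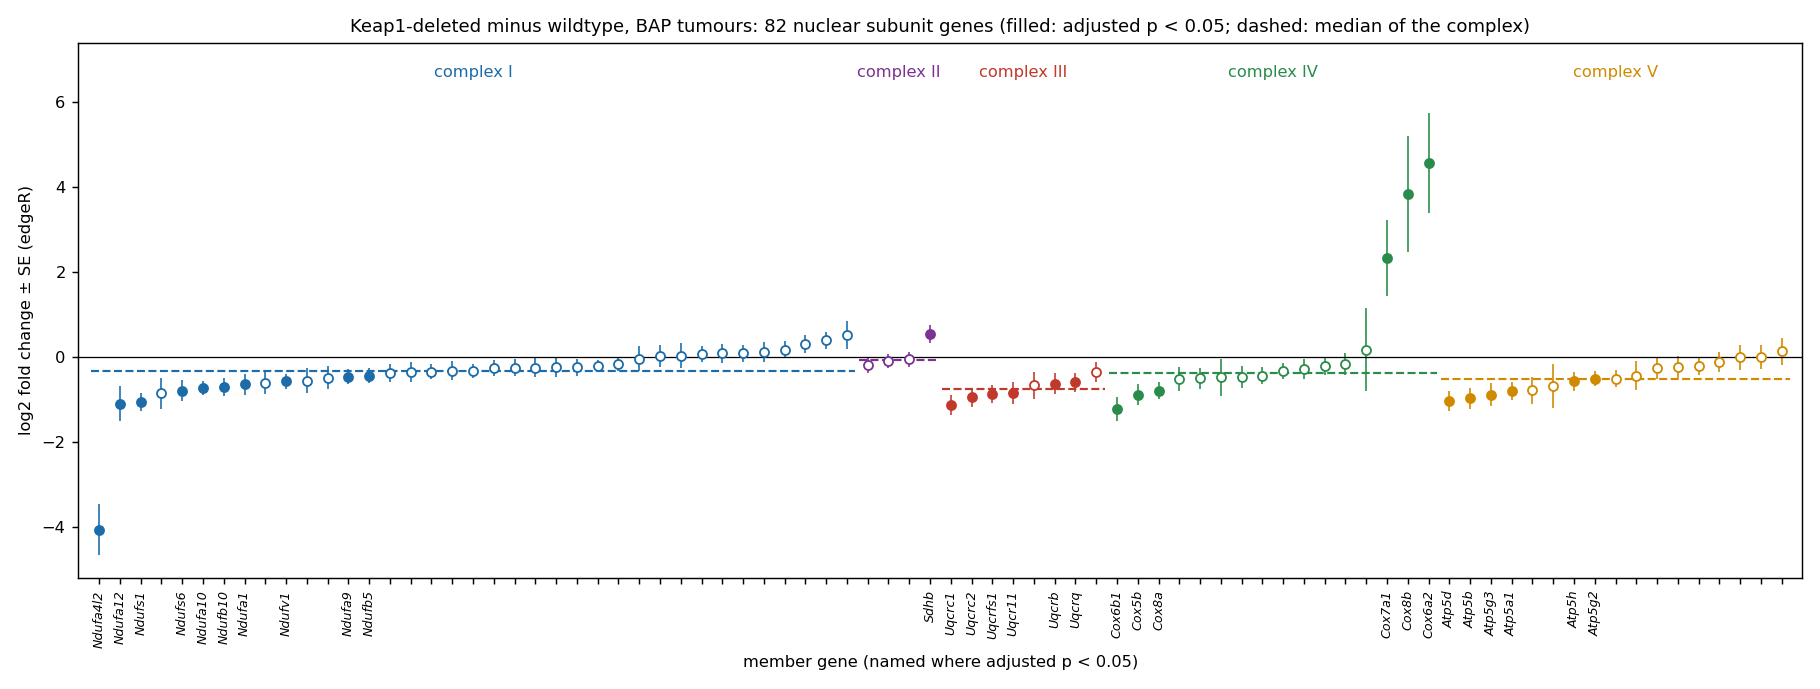
Log2 fold change (y axis, edgeR, Keap1-deleted minus wildtype in BAP tumours, 5 against 6 libraries, TMM scaling) of each of 82 members (x axis, named where called), ordered within complexes I to V; bars are SE, filled points have an adjusted p under 0.05 and dashed lines are medians of the complex. Of 29 filled points 25 lie below 0, while Cox6a2, Cox8b, Cox7a1 and Sdhb lie above it. With library totals as the only scaling the filled points would be 6 below and 8 above, beside 11.4% of all genes lower and 31.5% higher.

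The groups of BAP tumours did not overlap for 14 members that were lower in every Keap1-deleted library (17.1%, beside 13.7% of all genes) and for 1 that was higher (1.22%, beside 13.8%). Without the pair of libraries that stood apart, 17 members fell and 4 rose (25.6% called, beside 39.2% of all genes, of which 19.5% were lower and 19.7% higher). Of 29 called members, 18 were called in every fit that left out 1 of the 11 BAP libraries. The count of calls was lowest, 19, without Keap1-deleted BAP 4 (23.2%, beside 34.4% of all genes), and 33 without Keap1-deleted BAP 1 (40.2%, beside 36.3%). Only 1 member was called higher without Keap1-wildtype BAP 3 or Keap1-deleted BAP 1, and 2 without Keap1-wildtype BAP 1, 4 or 6 or Keap1-deleted BAP 4.

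Counts per complex in this contrast of BAP tumours stand beside 20.0% of all genes lower and 20.3% higher. Complex I had 10 of 37 genes lower and 0 higher, with a median log2 fold change of -0.32. Ndufs1 (ENSMUSG00000025968, chromosome 1, 63143596 to 63176833, minus strand, GENCODE M21 on GRCm38) is a core subunit that carries electrons within the hydrophilic arm. In Keap1-wildtype BAP tumours it ranged from 71.9 to 136 CPM with a median of 102 CPM. The Keap1-deleted BAP libraries held 50.3, 40.8, 64.3, 38.7 and 51.3 CPM. Each of these 5 values lay below the lowest wildtype value of that arm. The log2 fold change was -1.06 (SE 0.22, adjusted p = 0.00105). When only library totals were used for scaling it was -0.60 (adjusted p = 0.0162).

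Ndufv1, the flavoprotein that takes electrons from NADH, was the other core subunit of complex I that was called (-0.58, adjusted p = 0.0172). The core subunits Ndufs3, Ndufs7, Ndufs8 and Ndufv2 were not called, with log2 fold changes from -0.38 to -0.17. Among accessory subunits, Ndufa10 fell by 0.73 on the log2 scale (SE 0.16, adjusted p = 0.00182) and its groups did not overlap. Ndufa12, Ndufs6, Ndufb10, Ndufa1, Ndufa9 and Ndufb5 were also called lower, with log2 fold changes from -1.10 to -0.44. At the other end of complex I, Ndufs5, Ndufa7 and Ndufa2 had positive log2 fold changes of 0.52, 0.39 and 0.30, and none of them passed the test.

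The largest decrease among the members was that of Ndufa4l2 (ENSMUSG00000040280, chromosome 10, 127514967 to 127517154, plus strand), a paralog of Ndufa4 known to be induced in hypoxia. It held 390 to 710 CPM in Keap1-wildtype BAP tumours, with a median of 575 CPM. The Keap1-deleted BAP libraries held 53.6, 33.5, 11.6, 11.5 and 58.5 CPM. The highest deleted library was far below the lowest wildtype one. The log2 fold change was -4.07 (SE 0.61, adjusted p = 3.01e-04), and it stayed between -4.36 and -3.85 whichever BAP library was left out. In untreated tumours Ndufa4l2 held 461, 94.1, 474, 430, 210 and 39.3 CPM in wildtype libraries and 70.2, 72.7, 29.1, 83.7 and 60.9 CPM in deleted ones. Those groups overlapped through Keap1-wildtype untreated 6 alone (39.3 CPM), a library of the pair that stood apart. The difference there was -2.17 (SE 0.55, adjusted p = 0.0783), and it was called in edgeR when that library was left out.

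Expressed per kilobase, Ndufa4l2 made up a median of 76.0% of the sum of Ndufa4l2 and Ndufa4 in Keap1-wildtype BAP tumours and 25.8% in Keap1-deleted BAP tumours. The ranges were 57.7% to 83.8% and 8.33% to 34.01%, and they did not overlap. In untreated tumours the medians were 60.2% and 27.3%. Their ranges overlapped through Keap1-wildtype untreated 6 alone (36.8%, with up to 45.3% in deleted tumours). Ndufa4 itself was 0.86 lower on the log2 scale in Keap1-deleted BAP tumours and missed the threshold (adjusted p = 0.0695), although its groups did not overlap. Ndufa4l2 overlaps Shmt2 on the opposite strand in the annotation, and Ndufs1 overlaps Eef1b2. Strand-specific counting is not stated in the sources used here. Shmt2 had a log2 fold change of -0.89 and Eef1b2 of -1.05 in the same contrast, and the part that shared reads have in these values was not tested.

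Complex II, which also works as an enzyme of the citric acid cycle, had 0 of 4 genes lower and 1 higher. With so few genes this is hard to set beside the 20.0% and 20.3% of all genes. Sdhb (ENSMUSG00000009863, chromosome 4, 140961203 to 140979193, plus strand), the iron-sulphur subunit, held 67.0 to 112 CPM in Keap1-wildtype BAP tumours with a median of 87.4 CPM. It held 166, 125, 103, 152 and 109 CPM in the Keap1-deleted BAP libraries. The groups overlapped between 103 and 112 CPM. The log2 fold change was 0.55 (SE 0.21, adjusted p = 0.0427), and it was no longer called when any of 6 of the 11 BAP libraries was left out, or without the pair that stood apart (adjusted p = 0.0513). Sdha, Sdhc and Sdhd, the flavoprotein and the membrane anchors, lay at -0.19, -0.10 and -0.06 and were not called.

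In complex III 6 of 8 genes fell, beside 20.0% of all genes. Its median log2 fold change of -0.76 was the lowest of the 5 complexes. With library totals as the only scaling 2 of 8 fell, beside 11.4% of all genes, and the median was -0.34, which is 0.78 below that of all genes. Uqcrc1 (ENSMUSG00000025651, chromosome 9, 108936633 to 108949623, plus strand) and Uqcrc2 (chromosome 7, 120635176 to 120659524, plus strand) encode the core proteins on the matrix side of the complex. Uqcrc1 held 332 to 501 CPM in Keap1-wildtype BAP tumours with a median of 414 CPM. The Keap1-deleted BAP libraries held 247, 204, 179, 183 and 133 CPM. All 5 lay below every wildtype BAP library, and 3 of the 5 lay below every other library of the series as well. The log2 fold change was -1.13 (SE 0.23, adjusted p = 0.00113).

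Uqcrc2 held 123 to 218 CPM in Keap1-wildtype BAP tumours and 102, 72.0, 94.7, 71.0 and 84.1 CPM in Keap1-deleted BAP tumours. On the log2 scale it fell by 0.95 (SE 0.23, adjusted p = 0.00299). Uqcrfs1, the Rieske iron-sulphur protein, fell by 0.87 (adjusted p = 0.00365). These 3 core subunits did not overlap between the groups. The small accessory subunits Uqcr11, Uqcrb and Uqcrq also fell, with log2 fold changes of -0.85, -0.63 and -0.60, and their groups overlapped. Uqcrh (-0.67) and Uqcr10 (-0.35) were not called.

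Complex V had 6 of 17 genes lower and 0 higher, beside 20.0% and 20.3% of all genes, with a median of -0.51. The called genes included the catalytic beta subunit Atp5b, the alpha subunit Atp5a1 and the delta subunit Atp5d of the F1 head, and Atp5g2 and Atp5g3, which encode the same mature c subunit of the proton-driven ring. Atp5b (ENSMUSG00000025393, chromosome 10, 128083273 to 128090391, plus strand) held 1067 to 1621 CPM in Keap1-wildtype BAP tumours with a median of 1473 CPM. The Keap1-deleted BAP libraries held 823, 943, 720, 453 and 628 CPM, all below the wildtype range. The log2 fold change was -0.98 (SE 0.25, adjusted p = 0.00459), and the call was narrowly lost when only library totals were used for scaling (-0.54, adjusted p = 0.05004).

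Atp5d held 299 to 441 CPM against 270, 180, 181, 109 and 173 CPM, without overlap (log2 fold change -1.04, SE 0.24, adjusted p = 0.00223). Atp5a1, Atp5g3 and Atp5h followed with -0.81, -0.89 and -0.58. The remaining F1 subunits, Atp5c1 (gamma) and Atp5e (epsilon), lay at -0.22 and -0.01, and Atp5o, of the stalk that holds the head, at -0.01. None of these 3 was called. So within the F1 head the log2 fold changes ran from -1.04 for Atp5d to -0.01 for Atp5e.

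**Figure D2:**
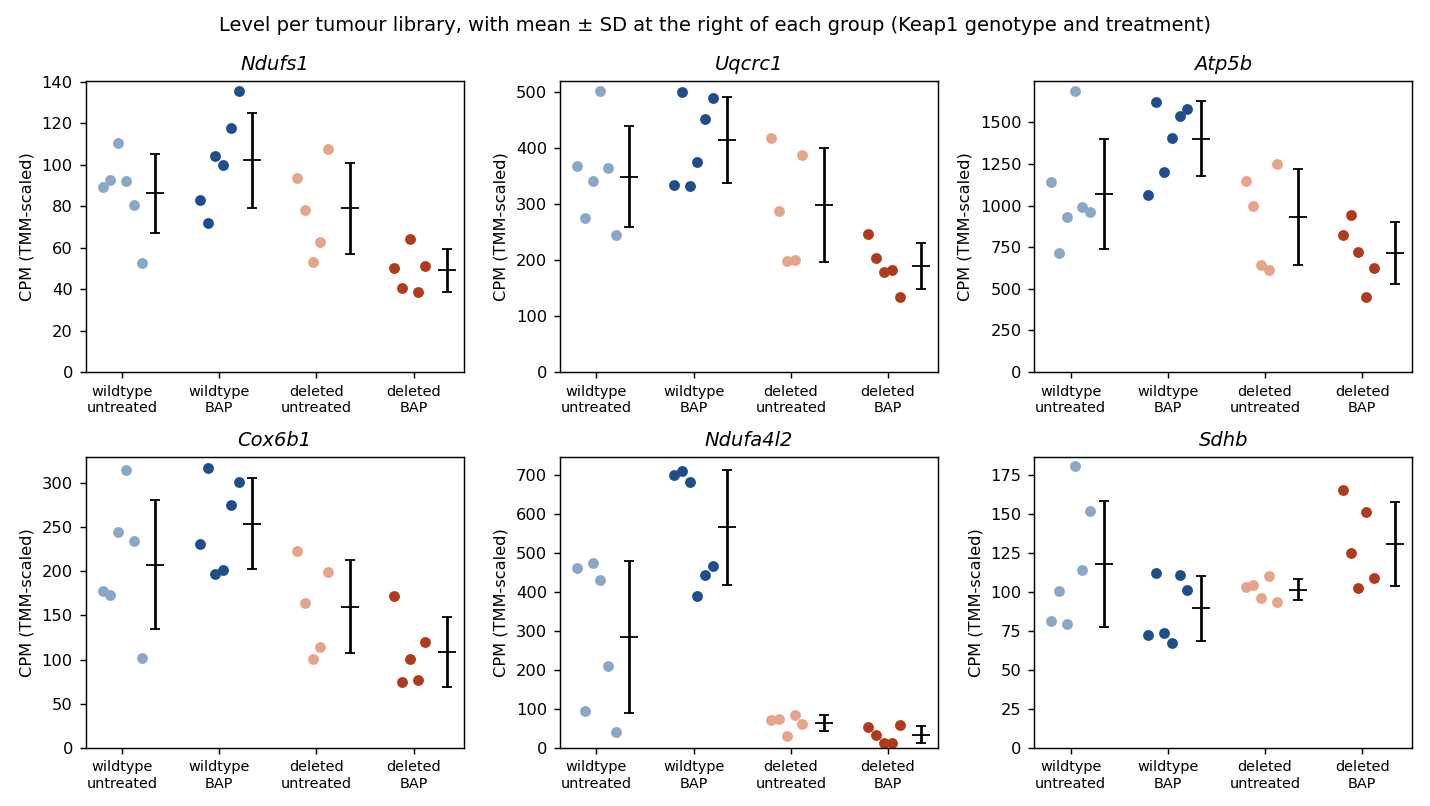
Level of 6 members (y axes, CPM scaled by TMM) in each of 22 tumour libraries, grouped by Keap1 genotype and treatment on the x axes; black marks are group means with SD. The 5 Keap1-deleted BAP libraries lie below all 6 Keap1-wildtype BAP libraries for Ndufs1, Uqcrc1, Atp5b, Cox6b1 and Ndufa4l2, and overlap them for Sdhb.

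In complex IV 3 of 16 genes fell and 3 rose. Both counts were near the background of 20.0% of all genes lower and 20.3% higher. Those that fell encode widely expressed subunits. Cox6b1 (ENSMUSG00000036751, chromosome 7, 30616861 to 30626151, minus strand), a subunit on the intermembrane side, held 197 to 317 CPM in Keap1-wildtype BAP tumours with a median of 253 CPM. It held 172, 75.1, 100, 76.4 and 120 CPM in the Keap1-deleted BAP libraries. The highest deleted value was below the lowest wildtype one, and the log2 fold change was -1.22 (SE 0.28, adjusted p = 0.00237). Cox5b and Cox8a fell by 0.89 and 0.79 on the log2 scale. Cox4i1, Cox5a, Cox6a1, Cox6c, Cox7a2, Cox7a2l, Cox7b and Cox7c were not called, with log2 fold changes from -0.52 to -0.16.

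The 3 that rose were muscle-type isoforms at low levels. Cox6a2 (ENSMUSG00000030785, chromosome 7, 128205435 to 128206387, minus strand) held 0.421, 1.08, 0, 0, 0.153 and 0.261 CPM in Keap1-wildtype BAP tumours and 17.0, 2.17, 11.5, 6.52 and 1.56 CPM in Keap1-deleted BAP tumours. The groups did not overlap, and the log2 fold change was 4.57 (SE 1.18, adjusted p = 0.00491). Cox8b (chromosome 7, 140898945 to 140900446, minus strand) was at most 0.351 CPM in the former and held 3.32, 0.505, 3.76, 1.90 and 0 CPM in the latter. Its log2 fold change was 3.83 (SE 1.36, adjusted p = 0.0297), and it was lost when any of 5 of the 11 BAP libraries was left out. Cox7a1 was called with 2.33 (SE 0.89, adjusted p = 0.0423), a call lost for 8 of the 11.

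Even where they were highest these isoforms were a small part of their pairs. Per kilobase, Cox6a2 made up at most 5.16% of the sum of Cox6a2 and Cox6a1 in a Keap1-deleted BAP library and at most 7.47% in a Keap1-deleted untreated one. Markers of skeletal muscle moved with them. Of 17 measured muscle markers 15 were called higher and 0 lower in the same contrast. Their summed level ran from 13.9 to 104 CPM in Keap1-wildtype BAP tumours and from 23.0 to 1509 CPM in Keap1-deleted BAP tumours. Ckm, the muscle creatine kinase, was at 0 in Keap1-deleted BAP 5, where Cox8b was at 0 and Cox6a2 was lowest among Keap1-deleted BAP libraries. In that library 4 of the 17 markers were at 0, while Myh2 held 1.56 CPM, above every wildtype BAP library (at most 0.611 CPM). Cox7a1 held 0.884 CPM there, with a muscle sum of 23.0 CPM. In Keap1-deleted BAP 2 it held 0.707 CPM, with a muscle sum of 605 CPM. With the muscle score as a covariate the log2 fold changes were 1.40 for Cox6a2 and -2.52 for Cox8b and neither was called. The share of muscle tissue in each tumour was not measured otherwise.

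**Figure D3:**
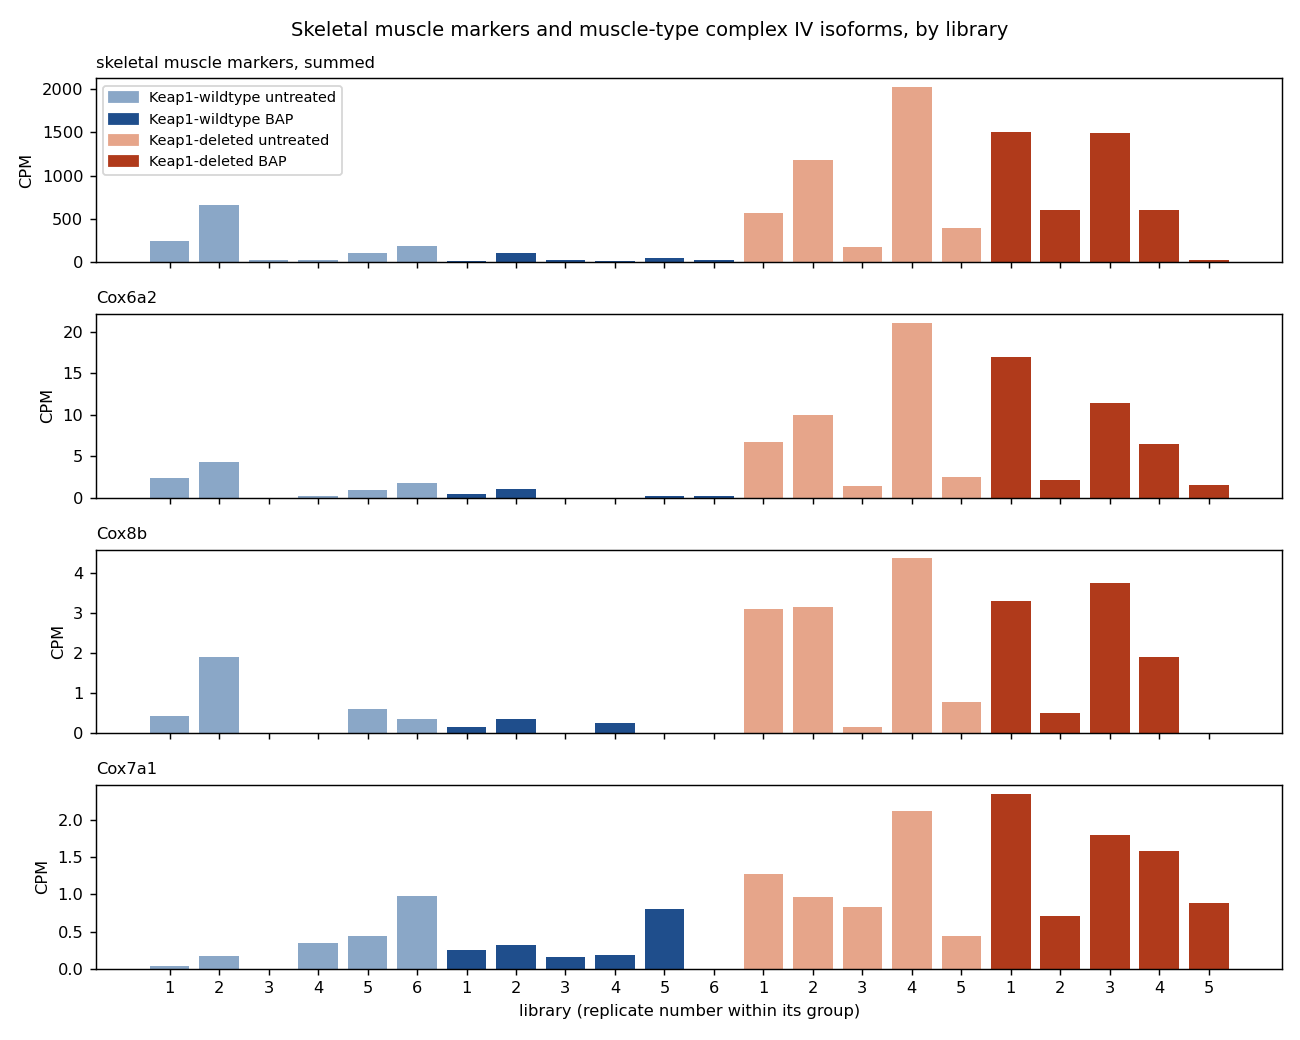
Summed CPM of 17 skeletal muscle markers (top) and CPM of Cox6a2, Cox8b and Cox7a1 (y axes) in each of 22 libraries (x axis, replicate number within the group; colour gives the group). Cox6a2 is highest in Keap1-deleted untreated 4 (21.1 CPM), where the muscle sum is also highest (2023 CPM). In Keap1-deleted BAP 5, where the muscle sum is 23.0 CPM, Cox8b is 0 and Cox7a1 is 0.884 CPM.

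Of the other restricted forms, Cox4i2, an isoform of lung and of oxygen-sensing tissue, lay between 1.27 and 7.24 CPM in the 22 libraries and was not called (-0.48). Cox6b2, the testis form, ranged from 0 to 8.73 CPM and was not called either (0.17). Its highest value was that of Keap1-wildtype BAP 2 alone. The other libraries of that group held 0.0370 to 0.945 CPM, and the Keap1-deleted BAP libraries 0.505 to 3.47 CPM.

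**Figure D4:**
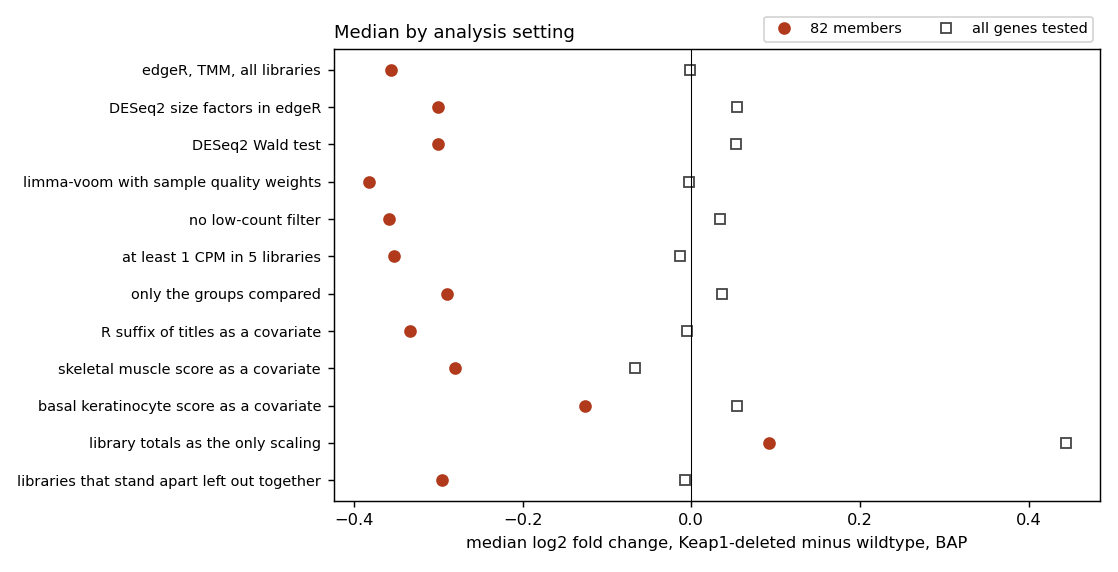
Median log2 fold change, Keap1-deleted minus wildtype in BAP tumours (x axis), of 82 members (filled circles) and of all genes tested (open squares) under 12 settings of the analysis (y axis). The members lie left of all genes at each setting, and scaling by library totals alone puts their median above 0 (0.09).

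Cell-type markers differed between these groups of BAP tumours, and so did the calls once they were modelled. Besides the basal keratinocyte markers, of which 13 of 14 were called lower, 11 of 12 fibroblast markers and 11 of 12 macrophage markers were called higher. The fibroblast sum ran from 1106 to 2674 CPM in wildtype and from 13489 to 46050 CPM in deleted BAP tumours, and the macrophage sum from 374 to 837 CPM and from 4117 to 8415 CPM. Of 7 measured adipocyte markers, brown fat included, 3 were called lower and 1 higher. Their sum ran from 214 to 5839 CPM in wildtype and from 8.88 to 122 CPM in deleted BAP tumours, without overlap. In each wildtype BAP library 2 to 4 of the 7 were at 0. A score of the same list overlapped between the groups (0.43 to 1.67 in wildtype, -1.24 to 1.52 in deleted), so the sum need not stand for adipocyte content. Once a basal keratinocyte score was added as a covariate, 0 members and 0 of all genes were called, and the members' median was -0.13 beside 0.05 for all genes. Since the keratinocyte, fibroblast, macrophage and adipocyte sums do not overlap between the genotypes, Keap1 deletion and whatever else sets these marker levels cannot be told apart in this arm. With the muscle score as a covariate 5 members fell (6.1% called, beside 8.59% of all genes lower) and 0 rose (beside 7.42% higher). The 5 were Ndufs1, Ndufa4l2, Uqcrc1, Cox8a and Atp5d.

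In untreated tumours 0 members were called in edgeR, where 0.0781% of all genes were called lower and 0.214% higher, 0.292% in all. At an unadjusted p under 0.05 there were 28 members, 34.1% beside 17.6% of all genes, and 27 of the 28 were lower (32.9%, beside 10.1%). The groups did not overlap for 0 members, beside 0.708% of all genes lower and 1.23% higher. The median log2 fold change was -0.37 beside -0.05 for all genes, and 73 of 82 members lay below 0 (89.0%, against 53.3%). DESeq2 called 4 members (4.88%, beside 4.92% of all genes) and limma-voom with sample quality weights 17 (20.7%, beside 17.9%). In edgeR 11 were called without the pair of libraries that stood apart (13.4%, beside 12.9%) and 10 without Keap1-wildtype untreated 6 alone (12.2%, beside 14.4%). The number of calls in this arm thus moved with that library and with the tool, for members and for all genes alike. Counted in either direction, the shares were near the background. Split by direction, 2.81% of all genes were called lower and 2.11% higher in DESeq2, and 6.7% and 11.2% in limma-voom. In edgeR it was 5.05% and 7.9% without the pair, and 5.74% and 8.64% without Keap1-wildtype untreated 6 alone. The member calls of these fits are not split by direction here. Cell-type markers also differed in level between these groups. From wildtype to deleted untreated tumours the median sum went from 2870 to 19221 CPM for fibroblast, from 747 to 2562 CPM for macrophage, from 36402 to 18234 CPM for basal keratinocyte and from 150 to 573 CPM for skeletal muscle markers. Keap1-deleted untreated 1 to 5 held 33490, 18234, 2873, 5365 and 35315 CPM of basal keratinocyte markers, and 12039, 9310, 7419, 7954 and 10703 CPM of all members together. Keap1-wildtype untreated 1 to 6 held 56738, 30516, 42289, 45096, 27233 and 1716 CPM of the same markers. All members together held 10713, 9693, 12630, 18520, 11842 and 9525 CPM in those wildtype libraries. The ranges overlapped between the genotypes for each list, as with 1716 to 56738 CPM in wildtype and 2873 to 35315 CPM in deleted tumours for basal keratinocyte markers. In edgeR 0 of these markers were called in this arm, with an unadjusted p under 0.05 for 8 of 17 muscle, 3 of 12 fibroblast, 0 of 12 macrophage and 0 of 14 keratinocyte markers, and their part in the members' shift was not tested.

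The smallest p values in this arm were those of Atp5k and Ndufa4l2. Atp5k, the e subunit of the membrane part of complex V, held 34.6, 54.3, 77.9, 130, 40.7 and 29.9 CPM in wildtype and 34.3, 26.2, 18.3, 17.9 and 30.4 CPM in deleted untreated tumours. The groups overlapped through Keap1-wildtype untreated 6 alone (29.9 CPM), and the log2 fold change was -1.27 (SE 0.32, adjusted p = 0.0758). Atp5k and Ndufa4l2 were both called in edgeR when that library was left out. Ndufs1 and Uqcrc1, which fell in the BAP arm, were at -0.13 (SE 0.21) and -0.23 (SE 0.23). Uqcrc1 held 246 to 502 CPM in wildtype untreated tumours with a median of 353 CPM, and 419, 288, 199, 201 and 387 CPM in deleted ones. By complex the medians were -0.36 for I, -0.01 for II, -0.61 for III, -0.31 for IV and -0.45 for V.

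Core subunits here are 7 of complex I, all 4 of complex II, 3 of complex III and the 5 F1 subunits of complex V, because those of complex IV are encoded in mitochondrial DNA. The word is a class label and does not mean that each gene encodes a catalytic centre. For complex III it covers Uqcrfs1 and the core proteins Uqcrc1 and Uqcrc2. In untreated tumours the median log2 fold change was -0.20 for 19 core and -0.42 for 63 accessory genes. In BAP tumours it was -0.35 and -0.36. For complex III the 3 core genes had a median of -0.22 and the 5 accessory genes one of -0.62 in untreated tumours, while in BAP tumours the values were -0.95 and -0.63. These are descriptions of medians, and the difference between the classes was not tested.

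**Figure D5:**
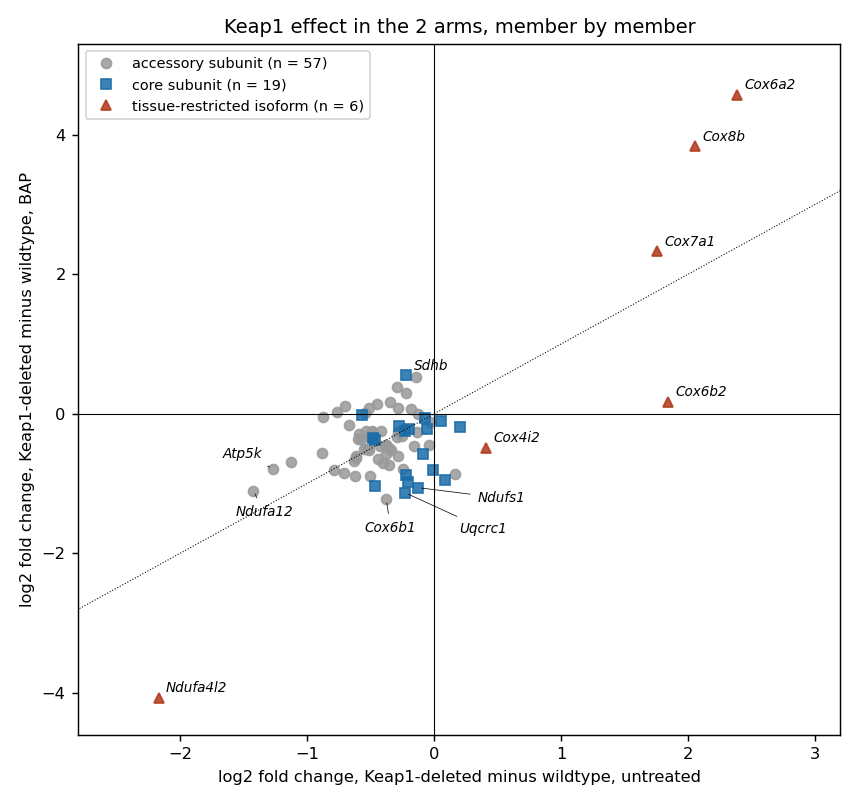
Log2 fold change, Keap1-deleted minus wildtype, in untreated tumours (x axis) and in BAP tumours (y axis) for each of 82 members, with marks for core subunits, accessory subunits and tissue-restricted isoforms; the dotted line is equality, and the 2 axes share no library. Ndufa4l2 is lowest on both axes (-2.17 and -4.07). Core genes lie on both sides of the line, with Uqcrc1 (-0.23 and -1.13) below it and Sdhb (0.55 in BAP tumours) above it.

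The difference between the arms was tested as an interaction, in which the fold change seen without BAP is subtracted from the one seen with it. In edgeR 0 members were called, beside 6.94% of all genes (4.47% lower and 2.47% higher), and 12 members had an unadjusted p under 0.05 (14.6%, beside 26.5%). DESeq2 called 5 members (6.1%, beside 15.7% of all genes). In edgeR 3 were called (3.66%) without Keap1-deleted untreated 3 or 4, beside 9.68% and 9.33% of all genes. The members' median was -0.01 and that of all genes 0.10. The smallest p values belonged to Uqcrc2 (-1.03, SE 0.32, adjusted p = 0.0515) and Ndufs1 (-0.93, SE 0.30, adjusted p = 0.0603). Uqcrc2 passed under the DESeq2 test (adjusted p = 0.0180), limma-voom (0.0256) and a filter that asked for 1 CPM in 5 libraries (0.04995), and not under 7 other settings. Among core genes 7 of 19, and among accessory genes 5 of 63, had an unadjusted p under 0.05. Uqcrc2 itself held 72.0 to 185 CPM in Keap1-wildtype untreated tumours with a median of 101 CPM, and 143, 124, 87.6, 91.1 and 148 CPM in Keap1-deleted untreated ones. In the same interaction 8 of 14 basal keratinocyte markers were called lower. Of macrophage markers 8 of 12 were called higher, and of fibroblast markers 1 of 12. The part of these cell-type markers in the members' values was not tested.

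Within each genotype BAP went with few calls among the members in edgeR. In Keap1-wildtype tumours 0 members and 0.0% of all genes were called in edgeR. Unadjusted p values under 0.05 were found for 2 members, beside 13.7% of all genes. The median was 0.01 beside -0.09 for all genes, and 38 members lay below 0, beside 57.1% of all genes. Those 2 were Uqcrc2 (0.55, SE 0.21, adjusted p = 0.248) and Cox6a2 (-2.29, SE 1.07, adjusted p = 0.351). In Keap1-deleted tumours 1 member rose and 0 fell, beside 0.943% and 5.16% of all genes (6.1% in all). At an unadjusted p under 0.05 there were 9 of 82 members, beside 20.3% of all genes, and 42 lay below 0, beside 51.6% of all genes. The gene was Ndufa7, an accessory subunit of complex I. It held 72.3, 59.6, 64.0, 73.6 and 54.7 CPM in untreated and 148, 64.7, 67.1, 168 and 110 CPM in BAP tumours. Keap1-deleted BAP 1, 4 and 5 lay above all untreated libraries and the other 2 within their range. The log2 fold change was 0.78 (SE 0.22, adjusted p = 0.0390), and it was lost when any of 7 of the 10 Keap1-deleted libraries was left out. DESeq2 called 3 members here (3.66%, beside 8.5% of all genes lower and 2.5% higher) and limma-voom 11 (13.4%, beside 19.7%). These contrasts share their libraries with the Keap1 contrasts above. Between the Keap1-deleted groups basal keratinocyte sums did not overlap (2873 to 35315 CPM untreated, 337 to 2212 CPM with BAP). Of these markers 9 of 14 were called lower. Macrophage sums did not overlap either (1239 to 3394 and 4117 to 8415 CPM), with 0 of 12 called. In Keap1-wildtype tumours 0 of either list were called, with an unadjusted p under 0.05 for 9 of 12 macrophage markers. Their part in the members' values was not tested.

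Other genes of mitochondrial energy metabolism were read from lists, whose counts in BAP tumours stand beside 20.0% of all genes lower and 20.3% higher. The 13 subunits encoded in mitochondrial DNA, which join the nuclear ones in complexes I, III, IV and V, had 1 gene lower in Keap1-deleted BAP tumours, mt-Co2 of complex IV (-1.55, SE 0.59, adjusted p = 0.0415), with a median of -0.80. In untreated tumours 0 of the 13 were called and 13 of 13 lay below 0, with a median of -1.22. Their summed level was 9079 to 45726 CPM in Keap1-deleted BAP tumours and 27688 to 55730 CPM in Keap1-wildtype BAP tumours. In Keap1-wildtype untreated tumours it spread from 13386 to 86543 CPM.

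Of 13 citric acid cycle enzymes 2 fell in Keap1-deleted BAP tumours, Cs (citrate synthase, -1.16, SE 0.26, adjusted p = 0.00205) and Ogdh (part of the oxoglutarate dehydrogenase complex, -0.74, adjusted p = 0.00687), and 0 rose. Of 10 electron carriers, voltage-gated channels and exchangers 5 fell and 2 rose. The smallest p values among those that fell belonged to Vdac1 (an outer membrane channel, -1.01, adjusted p = 0.00128), Slc25a3 (the phosphate carrier that feeds ATP synthase, -0.89, adjusted p = 0.00163) and Etfa (an electron transfer flavoprotein, -0.79, adjusted p = 0.00301). Cycs, cytochrome c, was not called (-0.47, adjusted p = 0.108). Of 46 assembly factors 5 fell and 5 rose. Atpaf2, a chaperone for ATP synthase, fell (-1.12, SE 0.21, adjusted p = 5.63e-04), and Ttc19, which acts on complex III, rose (1.25, SE 0.28, adjusted p = 0.00179). The medians of these lists were -0.23, -0.63 and -0.17.

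Promoters of the members were compared with those of other genes, because part of the members moved together in BAP tumours. RefSeq promoters of GRCm38.p6, each 300 bases from 250 before to 50 after a start site, matched 65 of 82 members. Searched on both strands, the palindrome of a nuclear respiratory factor 1 site occurred in 24.6% of the members' promoters and in 4.78% of 27025 promoters of all genes. The ETS letters CCGGAAG, as bound by GABP, occurred in 23.1% and 9.12%, and the YY1 site in 6.15% and 0.899%. The core of the antioxidant response element that NRF2 binds, TGACNNNGC, occurred in 13.8% of members and 12.5% of all. The hypoxia core ACGTG occurred in 24.6% and 19.7%, the MEF2 site in 1.54% and 3.7%, and the MyoD letters CAGCTG in 9.23% and 16.1%. Among the 19 members that fell in BAP tumours and had a promoter, 5 (26.3%) held the nuclear respiratory factor 1 letters, a share near that of all members. The hypoxia core was found in 36.8% of these 19, the antioxidant response core and the ETS letters in 21.1% each, the YY1 site and the MyoD letters in 10.5% each, and the MEF2 site in 5.26%. None of these shares was tested. A match is a description of letters, not of a bound site.

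The promoters below belong to 4 subunit genes that fell in Keap1-deleted BAP tumours (Uqcrc1, Atp5g3, Atp5h and Cox6b1) and to Cox8b, a muscle isoform that rose. They are examples with a marked match and do not represent the members that fell. Of those 19, 5 held the nuclear respiratory factor 1 letters and 4 the ETS letters. Atp5b, which fell and is not printed, held only the MyoD letters of those searched, and the muscle isoform Cox7a1 held none of them. The printed promoters are given 5′ to 3′ on the strand of the gene, with the start site just after the first 250 bases. In the first 4, capitals mark matches on either strand. These matches are of the nuclear respiratory factor 1 letters (Uqcrc1 at bases 256 to 265 and 281 to 290, Atp5g3 at 263 to 272, Atp5h at 110 to 119) and of the ETS letters (Atp5h at 213 to 219, Cox6b1 at 223 to 229). In Cox8b capitals mark the MyoD letters, at bases 232 to 237 and 267 to 272. The marked matches share no base.
Uqcrc1, chr9:108936398-108936697, plus strand: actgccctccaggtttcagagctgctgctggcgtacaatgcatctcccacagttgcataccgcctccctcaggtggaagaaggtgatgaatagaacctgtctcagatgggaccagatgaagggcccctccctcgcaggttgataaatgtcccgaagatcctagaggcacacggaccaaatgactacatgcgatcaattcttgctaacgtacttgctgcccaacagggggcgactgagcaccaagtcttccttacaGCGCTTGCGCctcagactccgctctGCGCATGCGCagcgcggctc
Atp5g3, chr2:73911277-73911576, minus strand: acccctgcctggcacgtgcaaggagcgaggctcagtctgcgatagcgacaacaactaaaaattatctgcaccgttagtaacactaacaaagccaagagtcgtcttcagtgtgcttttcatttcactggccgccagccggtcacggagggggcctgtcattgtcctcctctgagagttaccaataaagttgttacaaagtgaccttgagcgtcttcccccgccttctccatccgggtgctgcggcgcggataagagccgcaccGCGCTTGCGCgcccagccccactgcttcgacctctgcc
Atp5h, chr11:115419870-115420169, minus strand: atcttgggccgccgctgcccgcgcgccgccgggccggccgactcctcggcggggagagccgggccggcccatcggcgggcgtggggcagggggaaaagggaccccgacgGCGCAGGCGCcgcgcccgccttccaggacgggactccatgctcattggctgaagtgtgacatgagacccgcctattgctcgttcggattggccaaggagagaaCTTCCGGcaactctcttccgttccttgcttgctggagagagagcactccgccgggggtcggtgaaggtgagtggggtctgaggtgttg
Cox6b1, chr7:30626065-30626364, minus strand: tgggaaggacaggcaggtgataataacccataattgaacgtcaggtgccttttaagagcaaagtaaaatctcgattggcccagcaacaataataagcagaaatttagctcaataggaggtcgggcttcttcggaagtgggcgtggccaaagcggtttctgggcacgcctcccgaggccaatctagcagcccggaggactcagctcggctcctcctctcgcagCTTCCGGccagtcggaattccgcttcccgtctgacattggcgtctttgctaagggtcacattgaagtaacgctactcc
Cox8b, chr7:140900397-140900696, minus strand: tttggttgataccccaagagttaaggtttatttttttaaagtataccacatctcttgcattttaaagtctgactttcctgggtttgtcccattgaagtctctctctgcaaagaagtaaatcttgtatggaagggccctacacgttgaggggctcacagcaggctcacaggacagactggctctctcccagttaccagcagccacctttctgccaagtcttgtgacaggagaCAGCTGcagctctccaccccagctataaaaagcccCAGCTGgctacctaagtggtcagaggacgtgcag
In Uqcrc1 both matches lie just after the start site, and in Atp5g3 the single match does too. The log2 fold changes of these genes in BAP tumours were -1.13 for Uqcrc1, -0.89 for Atp5g3, -0.58 for Atp5h, -1.22 for Cox6b1 and 3.83 for Cox8b.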

How the data were processed

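RNA of 22 tumours was sequenced as paired-end reads per the labels' protocols. The deposited files give an expected count and an effective length (in bases) per Ensembl gene ID, columns of the RSEM quantifier per the file headers. The deposited expected count was whole in every file (tolerance 1e-09) and was used as is. The deposited length was equal in all files and served only for levels per kilobase. The sources used here do not name the aligner, build or strand setting. IDs were matched to GENCODE M21 (GRCm38): 52073 had a symbol, with 99.4% of counts.

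Groups follow the labelled genotype and treatment, and replicates are numbered in accession order. edgeR 4.0.16 in R 4.3.3 fitted all libraries (TMM, filterByExpr with minimum count 10, 19202 genes, robust quasi-likelihood F test, 5 contrasts), with Benjamini-Hochberg adjustment over all genes. SE were derived from the F statistic. The code was tested on simulated counts. Alternatives were DESeq2 1.42.0 size factors and test, limma 3.58.1 voom with quality weights, other filters, only the groups compared, covariates (the R suffix of titles, whose meaning is not given, a muscle and a basal keratinocyte score) and leaving out libraries. Library totals as the only scaling, and leaving out Keap1-wildtype untreated 6 with Keap1-deleted BAP 2, were added after the data were seen.

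The members and all lists were chosen with earlier results of these data known. Lists are described by counts and medians, with no test. Values per library are given for Ndufs1 and Uqcrc1, for the 2 smallest p values per complex in the BAP arm and up to 4 in other contrasts, for members called against the majority, and for restricted isoforms. Other members are named with fold changes. The values of 1 member are not reported here by name.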

Additional observations from a re-analysis of the deposited data

Results flagged for a closer look

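Dixon's test at the 95% level was applied to 88 pairs of a named member and a group of 5 or 6 libraries, and 7 were marked. Chance alone marks about 1 in 20 groups. The marked value is that of a single library far from the others of its group. Sdha held 238 CPM in Keap1-wildtype BAP 2, while the other 5 libraries held 131 to 168 CPM. The same library held 8.73 CPM of Cox6b2, with 0.0370 to 0.945 CPM in the others. Cox6b2 held 1.53 CPM in Keap1-wildtype untreated 6, the library low in Krt5, with at most 0.425 CPM in the other 5. Cox8b held 1.91 CPM in Keap1-wildtype untreated 2, with at most 0.598 CPM in the others. That library also had the highest muscle marker sum of its group (658 CPM). Keap1-wildtype untreated 4 was marked for both Cox6a1 (794 CPM, others 224 to 386 CPM) and Cox7a2 (178 CPM, others 107 to 132 CPM), and it had the highest median log2 CPM of all members in its group (7.18). Cox4i1 held 531 CPM in Keap1-deleted untreated 1, with 349 to 399 CPM in the other 4.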

How the results depend on the processing

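Calls in BAP tumours varied with scaling and covariates. For Keap1-deleted minus wildtype in BAP tumours there were 25 lower and 4 higher, 29 in all (35.4%, beside 40.3% of all genes). Without a count filter there were 19 calls with 2 higher (23.2%, beside 19.7%). The muscle covariate left 5 (5 lower, 0 higher, 6.1%, beside 16.0%) and the basal keratinocyte covariate 0 (beside 0.0%). Library totals gave 14 (6 lower, 8 higher, 17.1%, beside 42.9%), where the members' median was 0.092 beside 0.44 for all genes. Untreated, 0 calls became 4 with DESeq2 (4.88%, beside 4.92% of all genes), 17 with limma-voom (20.7%, beside 17.9%) and 11 without the pair that stood apart (13.4%, beside 12.9%). For BAP in Keap1-deleted tumours 1 call became 3 with DESeq2, 11 with limma-voom, 0 without a filter, 0 with only the groups compared, 3 with the R suffix and 0 with the basal covariate. For the interaction 0 calls (beside 6.94% of all genes) became 5 with DESeq2 (6.1%, beside 15.7%) and 3 with limma-voom (3.66%, beside 9.46%). There was 1 with the 1 CPM filter (1.22%, beside 9.61%), 5 with the R suffix (6.1%, beside 15.7%) and 3 with library totals (3.66%, beside 9.23%). The members' median of -0.01 became 0.27 with the basal covariate and 0.31 with library totals, beside 0.06 and 0.43 for all genes. Single genes that changed sign were Cox8b (-2.52, muscle covariate), Ndufb5 (0.0065, library totals), Uqcr11 (0.11) and Uqcrb (0.0165, basal covariate). Leaving out each library gave 19 to 33 calls in BAP tumours (17 to 32 lower, 1 to 4 higher, median -0.49 to -0.23). That is 23.2% to 40.2% of members, beside 34.4% to 39.4% of all genes. Untreated, there were 0 to 10 calls (median -0.47 to -0.24), beside 0.0814% to 14.4% of all genes. For BAP there were 0 to 0 in wildtype tumours (median -0.05 to 0.14), beside 0.0%, and 0 to 1 in deleted ones (median -0.13 to 0.09), beside 0.913% to 8.06%. The interaction had 0 to 3 (median -0.13 to 0.12), beside 0.00505% to 12.1%. The cause of these shifts was not tested. No paired analysis was possible because the replicate numbers only follow accession order. Muscle isoforms under 1 CPM are the values most limited by depth.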

Other observations

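The mitochondrial ribosome, which translates the subunits encoded in mitochondrial DNA, had 22 of 77 nuclear genes lower (28.6%, beside 20.0% of all genes) and 2 higher (2.6%, beside 20.3%) in Keap1-deleted BAP tumours, with a median log2 fold change of -0.24. Mrps34 (-1.06, SE 0.20, adjusted p = 5.59e-04), Mrpl36 (-1.21, SE 0.23, adjusted p = 6.88e-04) and Mrpl51 (-0.85, SE 0.19, adjusted p = 0.00189) had the smallest edgeR p values. In untreated tumours 0 of the 77 were called in edgeR, 28 had an unadjusted p under 0.05 (36.4%, beside 17.6% of all genes), and the median was -0.25. Mrpl36 overlaps Ndufs6 on the opposite strand, and strand-specific counting is not stated.

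Of 12 measured regulators of mitochondrial genes 4 fell and 1 rose in Keap1-deleted BAP tumours, few genes to set beside the 20.0% and 20.3% of all genes. Esrra, a nuclear receptor that activates respiratory genes, fell (-1.53, SE 0.26, edgeR adjusted p = 4.15e-04), as did its coactivator Ppargc1b (-1.62, SE 0.44, adjusted p = 0.00668). Yy1 rose (0.56, SE 0.15, adjusted p = 0.00591). In untreated tumours 0 of the 12 were called in edgeR and 0 had an unadjusted p under 0.05.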
